A study of Mus musculus with 8 samples.

Results

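Lysosomal genes were compared between quiescent and cycling fibroblasts. The set held 62 genes, measured by 135 probe sets, out of 18193 genes and 45037 probe sets. A gene belonged to it if its probe set carried a single gene symbol that either began with Atp6v, the subunits of the vacuolar proton pump, or was 1 of 43 listed lysosomal symbols. The pump gave 20 genes and the list gave 42. The listed gene Cd63 was not analysed here. By role the members were 13 proteases, 12 glycosidases, 5 sulfatases, 5 lipid hydrolases and lipid-binding proteins, 6 membrane proteins, the 20 pump subunits and the transcription factor Tfeb.

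The cells were NIH3T3, an established mouse embryonic fibroblast line. All of them carried mVenus-p27K-, a fluorescent fusion of a mutant of the cell cycle inhibitor p27, and mCherry-hCdt1(30/120), a fusion of a human Cdt1 fragment that is lost when S phase begins. All had been kept without serum and then given 10% serum for 5 h before sorting by FACS. The 4 G0 samples were positive for both colours, and the 4 G1 samples were negative for mVenus and positive for mCherry, so the G0 cells too had met serum for 5 h. Total RNA was hybridised to Affymetrix arrays, 1 array per sample and 8 in all.

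The lysosome is the acidic compartment in which soluble hydrolases cut proteins, glycans, sulfated sugars and lipids. Its acidity comes from the V-type ATPase, a rotary pump whose V1 sector hydrolyses ATP in the cytosol and whose V0 sector carries protons across the membrane. Many lysosomal genes share a promoter element with a TCACGTG core, which TFEB and its relatives bind when the kinase mTORC1 is inactive, as it is in starved cells.

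Each value is a log2 expression level from which the median of that probe set over the 8 arrays has been taken away, with the log base read as 2. They carry differences between arrays and no absolute level, so whether a lysosomal gene or a fibroblast marker was expressed at all could not be checked, and a large difference may lie on a dim probe set. In a sorted population, fewer cells that hold a transcript and less of it per cell cannot be told apart. Nothing in the labels says that the replicates were separate cultures, so the spread behind the p-values is that of these samples and may be a technical one. The labels put replicate 4 of both groups in a labelling batch of its own. They give kit protocol revision 3 and an input written as 1 mg for it, against revision 8 and 100 ng for replicates 1 to 3. The poly-A spike-in controls show another division of the arrays. Their 24 probe sets had medians of −7.12 on G0 replicate 3 and −6.40 on G1 replicate 4, and of −0.14 to 0.62 on the other 6 arrays. Both divisions would coincide if the titles of G0 replicates 3 and 4 had been exchanged, which was not tested. Replicate numbers are printed as titled, and values for those arrays, for labelled batch 2 and for replicate numbers as a block depend on the titles. The limma test was therefore run in 2 forms, with the labelled batch or the spike-in batch as covariate. The differences, G1 minus G0, are the same in both, and only their errors differ. A difference was called at an adjusted p under 0.05 over all probe sets.

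The promoters of several members hold the TCACGTG core, and those that hold it and had an unadjusted p under 0.05 in the limma fit with the spike-in batch are shown here, with Cln3 as the member with the full palindrome GTCACGTGAC. The letters are from RefSeq, build GRCm38.p6, and are written 5′ to 3′ on the gene's strand with the core in capitals.
Atp6v0d1: taagagccaggccctactgcggTCACGTG
Atp6v1a: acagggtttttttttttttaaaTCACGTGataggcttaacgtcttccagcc
Gaa: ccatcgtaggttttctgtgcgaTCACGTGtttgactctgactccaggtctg
Gla: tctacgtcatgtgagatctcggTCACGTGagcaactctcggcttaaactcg
Ctsd: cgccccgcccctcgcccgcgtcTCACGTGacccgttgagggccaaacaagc
Arsa: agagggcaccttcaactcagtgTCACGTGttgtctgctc
Cln3: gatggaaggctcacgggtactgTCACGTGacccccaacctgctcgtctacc

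These windows lie at chr8:105566062-105566090 (minus strand) for Atp6v0d1, chr16:44139363-44139413 (minus) for Atp6v1a, chr11:119267800-119267850 (plus) for Gaa and chrX:134601172-134601222 (minus) for Gla. The others lie at chr7:142387898-142387948 (minus) for Ctsd, chr15:89477425-89477463 (minus) for Arsa and chr7:126583330-126583380 (minus) for Cln3. Promoters ran from 250 bases before the transcription start to 50 bases after it. In Atp6v0d1 the core spans the start itself, and in Arsa it ends 11 bases before it. In Gla it lies farthest upstream of these 7, at −195 to −189.

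Of the 62 genes, 51 had a promoter in the RefSeq table, with 58 promoters between them. TCACGTG was searched on both strands, so CACGTGA counts as a match, and every match also contains CACGTG. The core was present in 16 of the 58 member promoters (27.6%), against 3.77% of all 32851 promoters of that length. CACGTG alone was present in 31% against 7.15%, and GTCACGTGAC in 1.72% against 0.326%. The 16 genes with the core had a median log2 difference of −0.26, with 14 of 16 below 0. The 35 genes with a promoter and without the core had a median of −0.13, with 25 below 0. Fitted by labelled batch, 3 of the 16 and 2 of the 35 were lower in limma at an unadjusted p under 0.05. Fitted by spike-in division, 6 of the 16 and 6 of the 35 were lower at that p. Except for Cln3, the windows printed above were picked by the latter fit, so they do not stand for all 16. These sets were not compared by a test. The members were picked as lysosomal genes, of which many are known to carry this element, and a match is a description of letters and not of binding. Atp6v0d2, Atp6v1g1, Atp6v1b2, Ctsh, Atp6v1c1, Atp6v1h, Asah1, Atp6v0a2, Npc1, Ctsb and Galns had no entry.

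With 1 probe set per gene, the median of the lysosomal genes lay slightly below 0, G1 minus G0. The set was not tested, and a single member passed the limma test. The median log2 difference over the 62 genes was −0.19, which is 1.14-fold lower, and 48 of 62 (77.4%) were below 0. Over all 18193 genes the median was −0.06, and 55.3% were below 0. The size of the members' median moved with single arrays and with the choice of probe set. It was −0.09 without G0 replicate 3 (all genes −0.02), −0.31 without replicate 4 of either group (all genes −0.11), and −0.09 when each gene was the average of its probe sets. Only Galns was called lower, in both limma fits, where 0.022% of all genes were called lower with the labelled batch and 0.077% with the spike-in batch. Counted as probe sets, 1 of 135 was called lower, against 0.0266% and 0.0866% of all probe sets. No member was called higher, where 0.5% and 0.929% of all genes were.

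Most of the differences were small. In 52 of the 62 genes the log2 difference was under 0.5 in size. At an unadjusted p under 0.05 in limma, 6 members (9.68%) were lower with the labelled batch, where 3.74% of all genes were, and 15 (24.2%) with the spike-in batch, where 6.37% were. At that p a single member, Ctsc, was higher in either fit, where 4.33% and 6.04% of all genes were. All 4 G1 values lay below all 4 G0 values in 8 genes (12.9%), against 3.28% of all genes. These were Galns, Ctso, Ctsd, Gaa, Neu1, Atp6v0d1, Atp6v1a and Atp6v1d. No member had all G1 values above all G0 values, where 3.79% of all genes did.

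**Figure D1:**
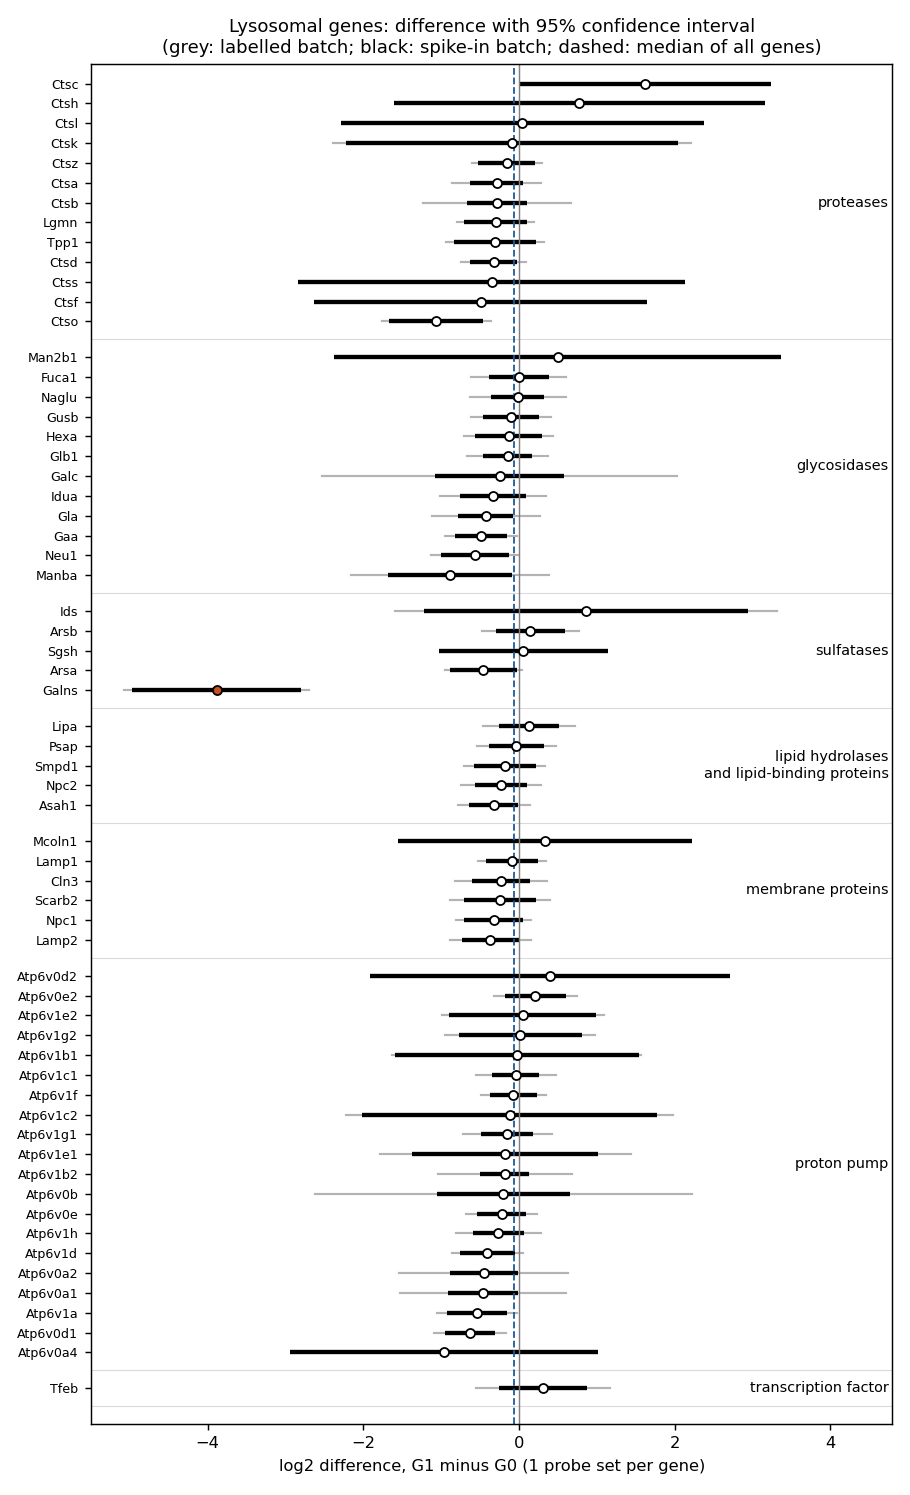
Log2 difference, G1 minus G0, of the 62 lysosomal genes by group, 1 probe set per gene, with 95% confidence intervals from limma (thin grey, labelled batch as covariate; thick black, spike-in batch) and a dashed line at the median of all genes. Galns at −3.88 (filled) stands apart from the others, which lie between −1.06 and 1.62.

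How far a member's value can be read depended on its spread. The 95% interval lay within 1 log2 unit of 0 for 32 of the 62 genes with the labelled batch and for 41 with the spike-in batch. In 17 genes the SD of at least 1 group was above 1. In such members, Ctsk, Ctss, Ctsf and Ctsh among them, neither a difference nor its absence can be read. The SE was smaller with the spike-in batch for 118 of the 135 probe sets.

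The sulfatases, which remove sulfate from sugars and lipids, contained the only called member. Galns encodes N-acetylgalactosamine-6-sulfatase, which acts on keratan sulfate and chondroitin sulfate. It has 2 probe sets, which the platform annotation ties to different sequence records, and they read differently. On 1443753_at the G0 values of replicates 1 to 4 were 1.30, 2.26, 1.10 and 1.91, and the G1 values were −1.10, −2.51, −2.85 and −2.52. Every G0 array was high and every G1 array low, with a gap of over 2 log2 units between the groups. The means were 1.64 ± 0.54 in G0 and −2.24 ± 0.78 in G1 (SD, n = 4). The log2 difference was −3.88, a 14.8-fold lower signal in G1 (limma, adjusted p = 0.031 and SE 0.51 with the labelled batch; adjusted p = 0.018 and SE 0.46 with the spike-in batch).

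On the other Galns probe set, 1448744_at, the G0 values were −0.15, −0.23, 0.36 and −0.86, and the G1 values were 0.15, 0.11, −0.11 and 0.20. Here the groups overlapped and the log2 difference had the opposite sign, 0.30 (limma, SE 0.28, 95% interval −0.35 to 0.96, adjusted p = 0.900; adjusted p = 0.688 with the spike-in batch). That interval excludes a fall of the size seen on 1443753_at. The call therefore belongs to 1 probe set and not to the gene as a whole, and which transcripts each probe set detects was not tested.

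The difference of 1443753_at had the same sign within each batch, at −3.70 and −4.43 in labelled batches 1 and 2 and −3.97 and −3.61 in spike-in batches 1 and 2. With 1 array per group in labelled batch 2 and in spike-in batch 2, those values have no test. The adjusted p was less stable than the difference. Each of the 8 arrays, left out in turn, ended the call, in limma fits that gave differences of −4.29 to −3.62 and adjusted p = 0.107 to 0.293 with the labelled batch and 0.052 to 0.132 with the spike-in batch. Few probe sets of any kind were called lower in those fits. Of all 45037 they called 0 to 5 lower with the labelled batch and 0 to 10 with the spike-in batch. The call was also lost on the 6 arrays with spike-ins (difference −3.97, limma adjusted p = 0.090) and in labelled batch 1 alone (−3.70, adjusted p = 0.139). There 3 and 0 of all probe sets were called lower.

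**Figure D2:**
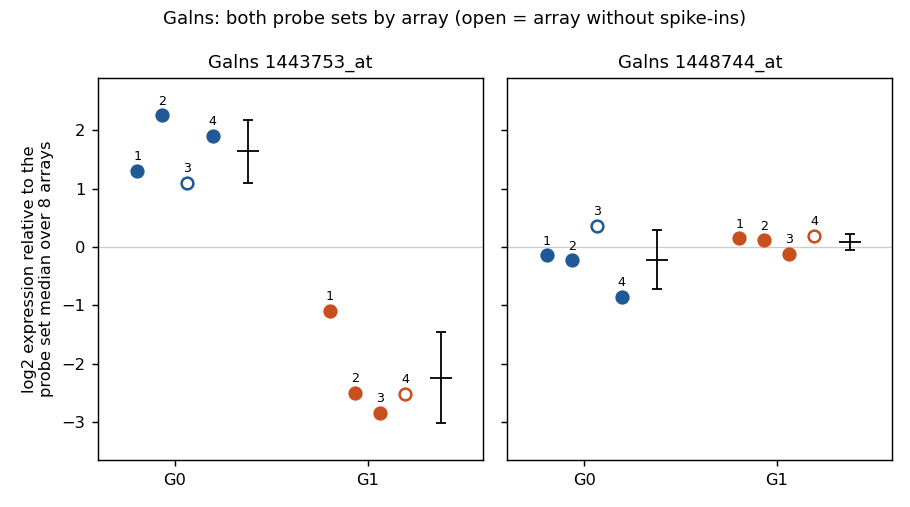
Log2 expression relative to the probe set median for the 2 Galns probe sets, 1 point per array numbered by replicate, with mean and SD beside each group (n = 4) and open points for the arrays without spike-ins. On 1443753_at the G0 values lie between 1.10 and 2.26 and the G1 values between −2.85 and −1.10, while on 1448744_at the groups overlap.

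The other sulfatases did not pass the test. Arsa, the arylsulfatase that degrades sulfatide, read 0.66, 0.43, 0.35 and −0.03 in G0 and 0.02, −0.14, −0.27 and −0.02 in G1. Only G0 replicate 4 fell inside the range of G1. The difference was −0.46 (limma, SE 0.21, adjusted p = 0.727; 0.424 under the spike-in batch). Ids, iduronate-2-sulfatase, had 6 probe sets that ran from −0.43 to 0.87. Its representative, 1427812_at, gave the highest of these (SE 1.05, limma adjusted p = 0.940) and scattered with an SD of 1.78 in G0. Arsb and Sgsh, which act on dermatan and heparan sulfate, differed by 0.15 and 0.06 with limma adjusted p = 0.969 and 0.992. On their other probe sets Arsb differed by −0.07 and −0.33 and Sgsh by −0.20. The median of the 5 sulfatases was 0.06 and has no settled sign. With the labelled batch it was −0.03 without G0 replicate 1 or G0 replicate 3 and −0.25 without G0 replicate 2. In that fit it was −0.10 without G1 replicate 1 and 0.24 without replicate 4 of either group. Over all 14 probe sets, each counted by itself, it was −0.27.

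Among the 13 proteases 10 had a difference below 0, with a median of −0.29, and 0 were called. At an unadjusted p under 0.05 in limma 1 was lower (7.69%) and 1 higher, and by the spike-in batch 2 (15.4%) and 1. Over all genes 3.74% and 6.37% were lower, and 4.33% and 6.04% higher, in those fits. Ctso, a cysteine cathepsin, had the largest difference below 0. On 1433501_at it read 1.19, 1.08, 0.10 and 0.27 in G0 and −0.10, −0.16, −0.63 and −0.72 in G1. The groups did not overlap, though G0 replicates 3 and 4 lay close to the G1 values. The difference was −1.06, 2.09-fold (limma, SE 0.30, adjusted p = 0.408; 0.183 under the spike-in batch). Its other probe set, 1443084_at, differed by 1.22 with an SD of 1.91 in G0 and an SE of 1.09, so the probe sets of Ctso do not share a direction.

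Ctsd, the main aspartic protease of lysosomes, was among the most even members. It read 0.07, 0.37, 0.26 and 0.21 in G0 and −0.09, −0.07, −0.13 and −0.12 in G1. The G1 values lay within a narrow band below every G0 value. The difference was −0.33, or 1.25-fold (limma, SE 0.18, adjusted p = 0.782; 0.413 under the spike-in batch), and its values within the 4 batches were −0.32, −0.33, −0.31 and −0.38. Lgmn, the asparaginyl endopeptidase that processes other proteases, differed by −0.30 (limma, adjusted p = 0.851), and Ctsa, a carboxypeptidase that protects sialidase and β-galactosidase, by −0.29 on 1448128_at (SE 0.24) and by 0.22 on 1458466_at (SE 0.25), so its probe sets have no shared sign. For Tpp1, a tripeptidyl peptidase, the difference was −0.31 on 1434768_at and −0.30 on 1448313_at. Ctsz, a carboxypeptidase, differed by −0.15, −0.32 and −0.20 on its 3 probe sets.

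Ctsc ran the other way. It encodes dipeptidyl peptidase I, which activates serine proteases. On 1416382_at the G0 values were −0.38, −1.28, 0.22 and −0.72 and the G1 values 0.92, 2.87, −0.22 and 0.77. G1 replicate 2 was far above the rest, and G1 replicate 3 lay among the G0 values. The difference was 1.62, or 3.08-fold (limma, SE 0.67, adjusted p = 0.677; 0.442 under the spike-in batch). Its other probe sets differed by −0.12 and −0.62 with SE of 0.86 and 1.02, so no direction holds for the gene. Ctsh differed by 0.77 and −0.05 on its probe sets, and Ctsl by 0.04 and 0.14. When each gene was given the average of its probe sets in place of 1 representative, the median of the proteases was −0.09 and not −0.29. Without G0 replicate 3 it was −0.16 with the labelled batch, and on the 6 arrays with spike-ins it was −0.28.

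Ctsb shows how a value can depend on the arrays without spike-ins and on the batch term. This cysteine protease had 5 probe sets, all with a difference below 0, from −0.59 to −0.24. On 1448732_at the G0 values were 0.17, −0.04, 3.54 and −0.01 and the G1 values 0.01, −0.48, −0.44 and 3.27. The 2 high values were those of G0 replicate 3 and G1 replicate 4, the arrays without spike-ins. The difference was −0.33, with an SE of 1.51 with the labelled batch and 0.63 with the spike-in batch (limma, adjusted p = 0.989 and 0.893). On 1417490_at, the representative, the same arrays read 1.15 and 0.84, and the difference was −0.29 with all arrays. With the labelled batch it was 0.04 without G0 replicate 3, a fit that keeps the high G1 replicate 4. Within spike-in batches 1 and 2 it was −0.28 and −0.31.

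**Figure D3:**
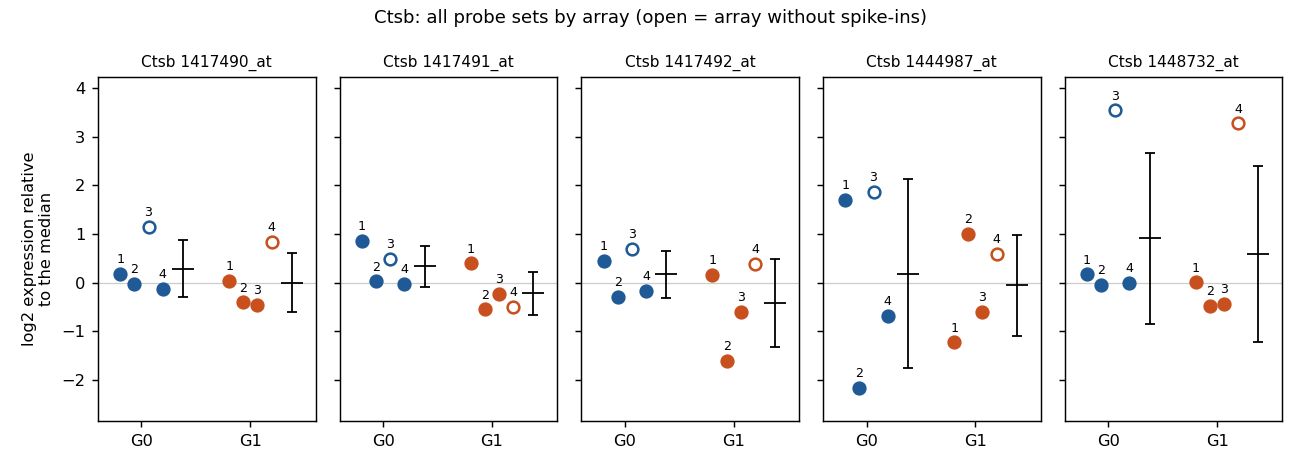
Log2 expression relative to the probe set median for the 5 Ctsb probe sets, 1 point per array numbered by replicate, with mean and SD beside each group (n = 4) and open points for the arrays without spike-ins. On 1448732_at those arrays read 3.54 and 3.27 while the other 6 lie between −0.48 and 0.17.

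On the arrays without spike-ins, lysosomal probe sets that stood apart mostly did so upwards. Of the 135 member probe sets, 42 (31.1%) were higher on both of these arrays than on all 6 others, against 15.9% of all probe sets. With group means removed, 31 (23%) were over 1 log2 unit higher there, against 18.9%, and 3 (2.22%) were over 1 unit lower, against 8.54%. These shares were compared without a test. Galc, which degrades galactosylceramide, read 2.75 and 2.76 there on 1420547_at, and Atp6v0b, a proteolipid subunit of the pump's V0 sector, read 2.83 and 2.80 on 1416769_s_at. Each group holds 1 such array. The SE of the Galc probe set was 0.97 with the labelled batch and 0.35 with the spike-in batch, and that of the Atp6v0b probe set 1.04 and 0.36. Whether labelling or the cells set it was not tested.

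Of the 12 glycosidases 11 had a difference below 0, with a median of −0.20, and 0 were called. At an unadjusted p under 0.05 in limma 2 were lower (16.7%), or 4 by the spike-in batch (33.3%), against 3.74% and 6.37% of all genes. With the labelled batch the median was −0.44 without G0 replicate 2, −0.11 without G0 replicate 3 and −0.10 without G1 replicate 2. On the 6 arrays with spike-ins it was −0.23, and with each gene averaged over its probe sets −0.09. Gaa, the acid α-glucosidase that degrades glycogen, read 0.30, 0.29, 0.26 and 0.05 in G0 and −0.39, −0.31, −0.28 and −0.05 in G1. The groups were separate, and replicate 4 of each lay nearest to the other. The difference was −0.49, 1.4-fold (limma, SE 0.20, adjusted p = 0.665; 0.270 under the spike-in batch), and −0.38 on its other probe set.

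Neu1 encodes sialidase 1, which removes sialic acid. On 1416831_at it read 0.23, 0.05, 0.75 and 0.26 in G0 and −0.56, −0.05, −0.13 and −0.21 in G1. These groups did not overlap, although G0 replicate 2 and G1 replicate 2 were close. The difference was −0.56 (limma, SE 0.24, adjusted p = 0.682; 0.324 under the spike-in batch). Its other probe sets, 1447942_x_at and 1448481_at, differed by 1.05 and 0.14 with SE of 0.62 and 0.81, so the sign is not shared.

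Gla, α-galactosidase A, showed the same lack of agreement between probe sets. On its representative, 1418248_at, the difference was −0.43 (limma, SE 0.30, adjusted p = 0.844). On 1449006_at the G0 values were −0.05, 0.07, 1.08 and 1.52 and the G1 values 0.05, −2.32, −3.04 and −0.26. There G1 replicates 2 and 3 were low and G1 replicate 1 lay within the range of G0. The difference on that probe set was −2.05, 4.13-fold (limma, SE 0.71, adjusted p = 0.583; 0.390 under the spike-in batch), and on 1459738_x_at it was 0.76.

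Manba, the β-mannosidase, differed by −0.89 (limma, SE 0.54, adjusted p = 0.819; 0.397 under the spike-in batch). Its G1 replicate 4 read −2.40, while the other G1 arrays lay between −0.25 and 0.32, so 1 array sets much of that difference. Hexa, the α subunit of β-hexosaminidase, differed by −0.13, and Glb1, the β-galactosidase used as a senescence stain, by −0.15. Naglu differed by −0.02, and Fuca1 by −0.00 on its representative and by −0.19 to 0.83 on its 3 others. For Glb1 the 95% interval was −0.66 to 0.37 with the labelled batch and −0.46 to 0.17 with the spike-in batch. Man2b1, at 0.50 the only glycosidase above 0, read −4.24 on G0 replicate 2 and had an SE of 1.22, and its other probe set differed by −0.16 (SE 0.20). Glycosidases and sulfatases together had a median of −0.15, with 13 of 17 below 0.

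Lipid hydrolases and lipid-binding proteins had a median of −0.18, with 4 of 5 below 0 and 0 called. Their count at an unadjusted p under 0.05 in limma was 0, or 1 lower gene by the spike-in batch (20%, against 6.37% of all genes). With the labelled batch the median was −0.11 without G0 replicate 2, −0.35 without replicate 4 of either group and −0.08 without G1 replicate 3. It was −0.09 with averaged probe sets. Asah1, acid ceramidase, read 0.16, −0.01, 0.28 and 0.08 in G0 and −0.27, −0.29, −0.24 and 0.01 in G1. G1 replicate 4, an array without spike-ins, was the only G1 value inside the range of G0. The difference was −0.33 (limma, SE 0.20, adjusted p = 0.817; 0.424 under the spike-in batch). Npc2, which carries cholesterol within the lysosome, differed by −0.23, −0.09 and −0.43 on 3 probe sets and by 0.42 on 1443266_at, a noisier probe set (SE 0.95). Smpd1, acid sphingomyelinase, differed by −0.18 on its representative and by 0.06 on its other probe set. Psap, the precursor of the saposins, differed by −0.03 and −0.15 on its probe sets. Lipa, the acid lipase, differed by 0.13 on 1423140_at (SE 0.25) and by −0.28 and −0.38 on its others (SE 0.61 and 0.23).

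Membrane proteins had a median of −0.24, with 5 of 6 below 0 and 0 called. At an unadjusted p under 0.05 limma gave 0, or 1 lower gene by the spike-in batch (16.7%, against 6.37% of all genes). With the labelled batch the median was −0.36 without G0 replicate 2 and −0.13 without G0 replicate 3. On the 6 arrays with spike-ins it was −0.21. Lamp2, an abundant glycoprotein of the lysosomal membrane, had 4 probe sets with differences of −0.64, −0.37, −0.39 and −0.33. On 1428094_at it read 0.24, 0.07, 0.33 and 0.01 in G0 and −0.32, −0.18, −0.41 and −0.01 in G1, without overlap. On its other probe sets, the representative 1416344_at among them, the groups overlapped. The 4 probe sets had limma adjusted p = 0.712 to 0.839 with the labelled batch and 0.283 to 0.532 with the spike-in batch. Lamp1, the related glycoprotein, differed by −0.09 (SE 0.19, 95% interval −0.53 to 0.35).

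Npc1, which exports cholesterol, differed by −0.32 (limma, SE 0.21, adjusted p = 0.824), and Scarb2, the receptor that delivers β-glucocerebrosidase, by −0.24 and −0.33 on its probe sets. Cln3, whose promoter holds the full palindrome, differed by −0.23 and −0.48. Mcoln1, the calcium channel of the lysosome, differed by 0.34 on its representative 1431305_at, where G0 replicate 2 read −2.66, and by −0.38 without that array. Its other probe sets differed by −0.28 and −0.11.

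The proton pump had a median of −0.18 over its 20 genes, with 16 below 0, and 0 were called. Unadjusted, limma gave a p under 0.05 to 2 of them (10%), or 5 by the spike-in batch (25%), all lower. Over all genes 3.74% and 6.37% were lower at that p. The 8 genes of the V0 sector had a median of −0.34 and the 12 of the V1 sector −0.13. Without G0 replicate 3 the median of the pump was −0.05 with the labelled batch. On the 6 arrays with spike-ins it was −0.23, and with averaged probe sets −0.10. Both Atp6v0a1 and Atp6v0a2, the a subunits that form the proton path, read highest on that array, at 1.55 and 1.46.

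Atp6v0d1, the d subunit that couples the rotor to the membrane ring, was the pump gene with the smallest p. It read 0.35, 0.18, 0.46 and 0.21 in G0 and −0.25, −0.50, −0.38 and −0.18 in G1. Every G1 array lay below 0 and every G0 array above it. The difference was −0.63, 1.55-fold (limma, SE 0.20, adjusted p = 0.490; 0.141 under the spike-in batch). It was −0.71 and −0.39 inside labelled batches 1 and 2 and −0.62 and −0.64 inside spike-in batches 1 and 2.

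Atp6v1a, the catalytic A subunit, read 0.65, 0.33, 0.03 and 0.12 in G0 and −0.09, −0.03, −0.22 and −0.68 in G1. The groups were separate, with G0 replicate 3 and G1 replicate 2 adjacent. The difference was −0.54, 1.45-fold (limma, SE 0.22, adjusted p = 0.665; 0.295 under the spike-in batch). Its other probe set, 1450634_at, differed by −0.68 (limma, adjusted p = 0.724; 0.208 under the spike-in batch), so both probe sets of Atp6v1a lay below 0.

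Atp6v1d, a subunit of the central rotor stalk, agreed over 3 probe sets, at −0.41, −0.41 and −0.36. On 1416952_at the G0 values were 0.34, 0.22, 0.07 and 0.05 and the G1 values −0.23, −0.05, −0.15 and −0.52. No G1 value reached the lowest G0 value. The limma adjusted p was 0.737 with the labelled batch and 0.377 with the spike-in batch. Atp6v1h, which regulates the pump, differed by −0.26, and Atp6v1f by −0.07 (95% interval −0.49 to 0.35). The remaining V1 representatives lay between −0.18 and 0.05.

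Atp6v0a4 and Atp6v0d2, isoforms known from specialised cells, gave wide values. So did other pump genes, such as Atp6v0b (SE 1.04 with the labelled batch). Atp6v0a4, the a subunit of kidney and inner ear, differed by −0.96 with an SE of 0.81, and Atp6v0d2, the d subunit of osteoclasts and macrophages, by 0.40 and −1.61 on its 2 probe sets with SE of 0.93 and 1.01. Atp6v0e2 differed by 0.21, and its ubiquitous relative Atp6v0e by −0.22 (SE 0.23 and 0.20).

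**Figure D4:**
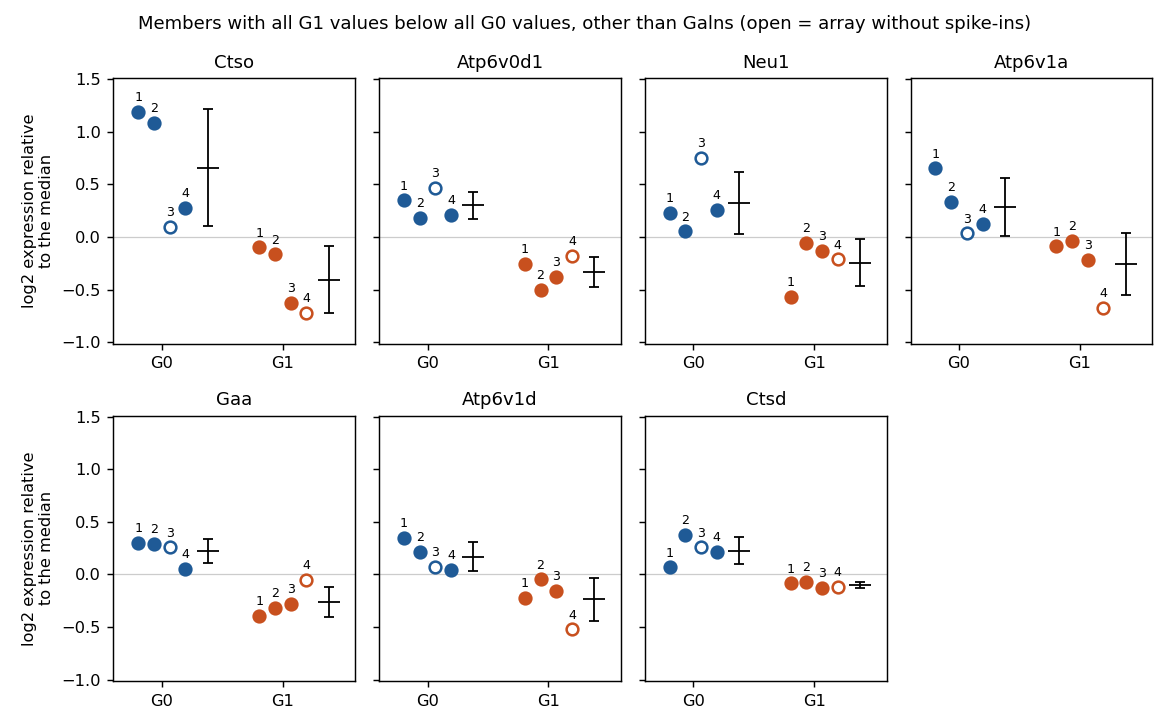
Log2 expression relative to the probe set median for the 7 lysosomal genes other than Galns in which all G1 values lay below all G0 values, 1 point per array numbered by replicate, with mean and SD beside each group (n = 4) and open points for the arrays without spike-ins. The genes were picked for this separation, and their differences run from −1.06 for Ctso to −0.33 for Ctsd.

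Agreement between probe sets varied over the members. Of the 40 genes with more than 1 probe set, 13 had all of them below 0, 1 (Ctsl) had all above 0 and 26 had mixed signs. Over all 135 probe sets 98 were below 0. The array medians over the 62 genes were 0.13, −0.02, 0.34 and 0.04 in G0 and −0.09, −0.11, −0.15 and 0.16 in G1. These medians overlapped, since G1 replicate 4, an array without spike-ins, lay above G0 replicates 1, 2 and 4. The median difference was −0.31 and −0.02 inside labelled batches 1 and 2, and −0.23 and −0.20 inside spike-in batches 1 and 2.

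**Figure D5:**
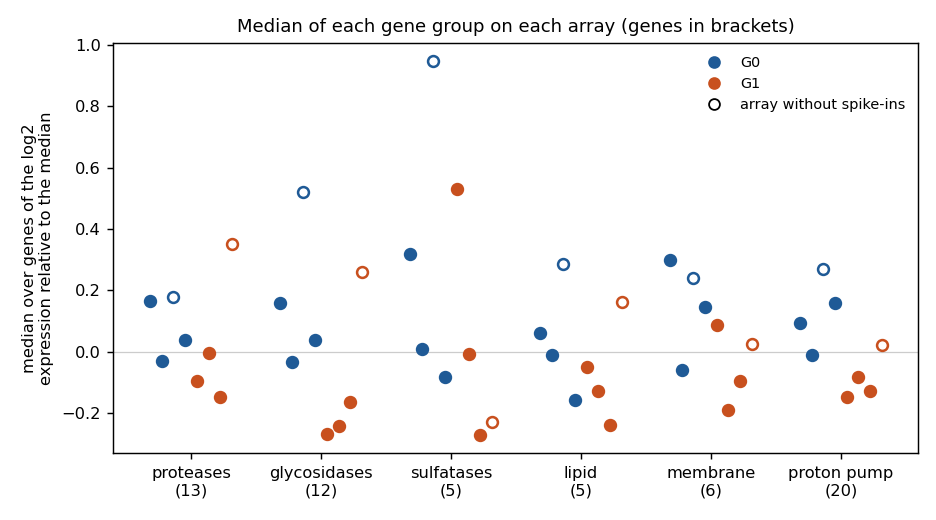
Median over genes of the log2 expression relative to the probe set median, for each group of lysosomal genes on each of the 8 arrays, with open points for the arrays without spike-ins. In the glycosidases G1 replicates 1 to 3 lie between −0.27 and −0.17 and G1 replicate 4 at 0.26, above 3 of the 4 G0 arrays.

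Tfeb, which drives transcription of lysosomal genes, read 0.12, −0.72, 0.57 and −0.12 in G0 and −0.15, 0.37, −0.19 and 1.04 in G1. The groups overlapped, and the highest value was that of G1 replicate 4. The difference was 0.31 (limma, SE 0.37, 95% interval −0.55 to 1.16, adjusted p = 0.939; 0.692 under the spike-in batch). Its activity is set largely by where the protein is in the cell, which these arrays do not measure. Of 18 other genes of the TFEB family and of mTORC1 control at the lysosome, limma called 0, and their median was −0.19. It gave an unadjusted p under 0.05 to 3 lower genes with the labelled batch (16.7%) and 4 with the spike-in batch (22.2%). Over all genes these shares were 3.74% and 6.37%. Flcn, folliculin, which lets mTORC1 act on TFEB, read 0.37, 0.03, 0.30 and 0.32 in G0 and −0.25, −0.59, −0.35 and −0.03 in G1. The groups of Flcn did not overlap (difference −0.56, limma adjusted p = 0.619; 0.274 under the spike-in batch). Rraga, the RagA GTPase, differed by −0.68 (limma, adjusted p = 0.674; 0.346 under the spike-in batch).

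Lists of related genes outside the set had medians between −0.24 and −0.12. Of 15 other hydrolases and activators, with a median of −0.15, limma called 0. The unadjusted p was under 0.05 for 2 lower genes in either fit (13.3%), against 3.74% and 6.37% of all genes. Pla2g15, the lysosomal phospholipase A2, read 0.68, 0.31, 0.47 and 0.55 in G0 and −0.31, −0.67, −0.49 and −0.35 in G1. The gap between its groups exceeded the spread within either (difference −0.95, limma SE 0.20, adjusted p = 0.182; 0.062 under the spike-in batch). Dnase2a, the acid DNase, also had separate groups and differed by −0.65 (limma, adjusted p = 0.383; 0.134 under the spike-in batch).

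Of 17 other lysosomal membrane proteins 0 were called, and 1 lower gene had an unadjusted p under 0.05, with a median of −0.24. With the spike-in batch 1 was lower and 1 higher at that p in limma. The lower share was 5.88% in either fit, against 3.74% and 6.37% of all genes. Slc38a9, the arginine sensor of mTORC1, differed by −0.71 (limma, adjusted p = 0.677) and the channel gene Mcoln3 by 2.03 (limma, SE 1.01, adjusted p = 0.760). Of 7 other pump genes 0 were called and 0 had an unadjusted p under 0.05 in either limma fit. Their median was −0.23, and the assembly factors Dmxl1 and Wdr7 differed by −0.44 and −0.46 (limma, adjusted p = 0.782 and 0.827).

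Sulfatases need an active-site modification by Sumf1, and hydrolases reach the lysosome through mannose 6-phosphate receptors. Of 8 genes of these steps 0 were called in limma, 0 had an unadjusted p under 0.05 with the labelled batch and 2 were lower at that p with the spike-in batch. The median was −0.12. Igf2r, the large receptor, differed by −0.43 (limma, adjusted p = 0.793; 0.368 under the spike-in batch), and Gnptg, a subunit of the phosphotransferase that makes the tag, by −0.53 (limma, adjusted p = 0.814; 0.432 under the spike-in batch).

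Macrophages are rich in lysosomes, so their markers were read beside these genes. Of 10 macrophage and leukocyte markers limma called 0. With the labelled batch an unadjusted p under 0.05 was reached by Adgre1, Cd14, Itgb2 and Lyz2, each lower in G1. That is 40% of the markers, against 3.74% of all genes. The median of the 10 markers was −0.60, with 7 of 10 below 0, and their array medians lay between −0.15 and 0.35 in G0 and between −0.56 and −0.17 in G1. Ptprc, Itgam and Csf1r were above 0, at 1.05, 0.08 and 0.05 (SE 0.73, 0.60 and 0.56). Cd14, Itgb2 and Lyz2 (30%) had separate groups, with differences of −0.65, −0.51 and −0.55. Over all genes 3.28% had all G1 values below all G0 values. The samples were sorted cells of a fibroblast line, so these values are read as single genes and not as a count of macrophages. Absolute levels are lacking, so whether any of these markers was present could not be seen. A link to the lysosomal values was not tested. Of 9 fibroblast markers 0 were called and 1 was lower at an unadjusted p under 0.05 (median −0.14; array medians −0.04 to 0.22 in G0 and −0.27 to 0.13 in G1). Of 9 genes of G2 and mitosis 8 were called higher in limma in either batch fit, where 0.5% and 0.929% of all genes were. Their median was 3.05. A call depends on spread as well as size. With the labelled batch the median SE of these 9 was 0.21, against 0.27 over the 62 lysosomal genes.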

How the data were processed

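The authors deposited log2 expression values, 1 column for each of 8 arrays. The submitters' processing notes name MAS5. A median of 0 in every probe set (5e-07 at most) shows that the values were centred before deposit. That step and the log base are not given in the sources used here. Base 2 was assumed from the range, −12.4 to 5.58. Without levels, dim probe sets could not be filtered, and the number of arrays limits precision.

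Samples were grouped by their titles. Of 45101 probe sets, 64 controls were left out. Symbols of the members are those of the platform annotation. For all other genes the symbol was updated through the Entrez identifier of the probe set where that was possible. Each gene was represented by 1 probe set, with the suffix _at preferred to _a_at, then _s_at, then _x_at, and the lowest number among equals. The test was two-sided and used limma (version 3.58.1, R 4.3.3; lmFit and eBayes with trend), with Benjamini-Hochberg adjustment over 45037 probe sets and a threshold of 0.05. The script was tested on simulated data. The members and gene lists were chosen with earlier results of these data known. Named genes were all Galns probe sets, called members, in each group the 4 with the smallest p, the 2 with the largest difference and the one at the median, Tfeb, genes whose probe sets differ in sign with an unadjusted p under 0.05, and 2 genes per outside list. Other members, other probe sets of named genes and markers are named for their roles, after their values were seen.

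Alternatives changed the batch term, the arrays, the scaling, the variance model, the probe sets used and the probe set per gene.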

Additional observations from a re-analysis of the deposited data

Results flagged for a closer look

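In 76 groups of 4 values looked at, 3 had a highest or lowest array whose gap to the nearest other, as a share of the group's range, exceeded Dixon's 95% critical value, where chance alone gives about 1 in 20. Gaa (1419428_a_at) read 0.055 on G0 replicate 4, while the other G0 arrays lay between 0.26 and 0.30. Galc (1420547_at) read 2.75 on G0 replicate 3, while the other G0 arrays lay between −0.25 and 0.23. Atp6v1b2 (1415814_at), a B subunit of the pump, read 1.03 on G1 replicate 4, while the other G1 arrays lay between −0.22 and −0.059. The last 2 are the arrays without spike-ins.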

How the results depend on the processing

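The count of member probe sets called lower, 1 as reported, was 0 with the replicate block (limma adjusted p of Galns 1443753_at 0.131), on the 6 arrays with spike-ins and in labelled batch 1 alone. It was 0 in each of the 16 fits that left out an array, which called 0 to 10 of all 45037 probe sets lower. Of 27 alternative limma fits, 8 kept the adjusted p of that probe set under 0.05 (0.011 to 0.049), and the others reached up to 0.293. By the titled numbers the samples were not taken as pairs: residuals of same-numbered arrays correlated at 0.069, 0.11, −0.14 and −0.14, while G0 replicate 3 correlated at 0.31 with G1 replicate 4 and G0 replicate 4 at 0.10 with G1 replicate 3. Other pairings were not fitted. The block fit on the titled numbers called 0 of all probe sets (1636 higher and 1583 lower at an unadjusted p under 0.05). The protease median was −0.086 with genes averaged over their probe sets. The pump median lay between −0.27 and −0.051 without single arrays, with the highest value without G0 replicate 3 in the fit with the labelled batch. In 30 of 1022 alternative fits, over 9 named probe sets, the sign turned, with 0 at an adjusted p under 0.05 in limma. For Ctsc 1437939_s_at the difference was 0.14 on the 6 arrays with spike-ins, 1.02 in labelled batch 1 alone and 0.22 with array weights. Without single arrays the differences of these 9 ran from −1.17 to 0.62 for Galc 1420547_at, from −0.61 to 0.90 for Neu1 1448481_at, from −0.45 to 0.83 for Mcoln1 1431305_at, from −0.71 to 0.040 for Ctsb 1417490_at, from −0.79 to 1.02 for Ctsc 1437939_s_at, from −1.32 to 0.20 for Ctsc 1446834_at, from −0.52 to 0.13 for Atp6v1b2 1415814_at, from −0.031 to 0.26 for Arsb 1429189_at and from −0.25 to 0.66 for Sgsh 1422988_at. The cause was not tested, beyond the smaller number of arrays.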
